A study of Rattus norvegicus with 12 samples.

Results

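Solute carriers are membrane proteins that move amino acids, ions, vitamins, nucleotides and metals across the cell surface and the membranes of organelles, and their gene symbols begin with Slc and a family number. The genes followed here are those with such a symbol and at least 60 reads over the 12 libraries of an RNA sequencing experiment on rat chondrocytes. There were 28 of them, from 15 Slc families, among the 42 Slc genes that carried a name, 1998 named genes and 32754 genes in the count tables. Symbols came from a table that pairs 1998 Ensembl identifiers with names, so Slc genes outside it were counted but not recognised here. Just inside the minimum lay Slc38a10 with 74 reads and Slc12a1 with 75, and just outside it Slc7a4 with 55 and Slc30a3 with 53. Among the 28, Slc4a1ap (kanadaptin, a protein that binds a member of the Slc4 family) has an Slc symbol but is not itself a carrier.

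The cells were RCS, a chondrocyte line from a rat chondrosarcoma, either wild type (WT) or FGFR3/4KO, which is 1 clone in which the FGF receptor genes Fgfr3 and Fgfr4 had been disrupted by CRISPR/Cas9. Both were grown in medium with 5% bovine serum and given FGF18, a growth factor of cartilage, or vehicle (untreated in the sample labels), which makes 4 groups of 3 biological replicates. FGF18 was left on overnight, at 50 µg/ml by the sample labels, while the published methods state the same number in ng/ml. QuantSeq 3′ sequencing reads each transcript near its 3′ end, so that counts do not grow with transcript length and the levels of different genes are compared here in counts per 1e6 (CPM) without a correction for length. Since the mutant is a single clone, the loss of the receptors and other properties of the clone cannot be told apart. The levels of Fgfr3 and Fgfr4 were not looked up, since neither is among the named genes. Reads near the 3′ end of a transcript also need not cross a disrupted site.

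The reads counted on genes were 669585, 698040 and 947730 in WT vehicle, 1196647, 1063903 and 846957 in WT FGF18, 674525, 373964 and 925006 in FGFR3/4KO vehicle and 840149, 1140741 and 1115851 in FGFR3/4KO FGF18. FGFR3/4KO vehicle replicate 2 was thus the shallowest library. On the CPM scale after TMM normalization, which all levels below use, 3 reads amounted to between 2.46 and 8.50 CPM, a floor that covers counting error only. The share of all reads that was counted on genes was 12.5 to 14.5% in the WT libraries and 17.0 to 18.8% in the FGFR3/4KO libraries, without overlap. The part of this difference in the comparisons between genotypes was not tested. The distance between replicates, as chi-square per degree of freedom over genes with at least 10 reads in the pair (1 for counting error alone), was 1.56 to 1.63 between WT vehicle libraries and 1.57 to 1.87 between FGFR3/4KO vehicle libraries. It was 2.99 to 5.67 between WT FGF18 libraries, with replicates 1 and 3 the farthest apart. FGFR3/4KO FGF18 replicate 1 stood apart from the other 2 of its group, at 4.62 and 4.65, while those differed by 1.999. Reads on the 28 solute carrier genes numbered 672 to 2091 per library.

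As background, some solute carriers are driven by gradients of sodium or protons, others exchange one substrate for another, and those of mitochondria, the endoplasmic reticulum (ER) and the Golgi supply these organelles with cofactors, nucleotides and sugars. Chondrocytes secrete large amounts of collagen and sulfated proteoglycan, which draws on amino acid uptake, on nucleotide sugars in the Golgi and on the control of acid, since cartilage has little blood supply. FGF18 acts on chondrocytes through FGF receptors, among them FGFR3, which restrains the growth of cartilage in long bones.

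Levels spanned a wide range among the 28 genes. Slc35b1, which exchanges ATP for ADP across the ER membrane, had the highest mean over the 12 libraries (408 CPM). It was followed by Slc39a7, a carrier that releases zinc from the ER (379 CPM), and Slc35a4, a relative of the nucleotide sugar carriers (132 CPM). By group means, Slc39a7 was above Slc35b1 in WT vehicle (415 and 388 CPM) and in FGFR3/4KO FGF18 (452 and 406 CPM). In the other groups it was below Slc35b1. Slc35b1 and Slc39a7 together took 43.7% of the 18662 reads on these genes. The lowest means were those of Slc12a1, the sodium, potassium and chloride cotransporter known from the kidney (6.97 CPM), Slc38a10, a relative of the sodium-coupled amino acid carriers (7.07 CPM), and Slc30a6, a Golgi zinc carrier (7.36 CPM). In all, 6 genes had a mean of 100 CPM or more, 14 a mean from 10 to 100 CPM and 8 a mean under 10 CPM. Only 4 genes were at 0 reads in any library: Slc8b1 in FGFR3/4KO FGF18 replicate 1, Slc30a9 and Slc38a10 in WT FGF18 replicate 3, and Slc52a3 in WT vehicle replicate 3.

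Summed over the 28 genes, the level was 1901, 1970.4 and 1875 CPM in WT vehicle and 1714, 1673 and 1789 CPM in WT FGF18. In FGFR3/4KO RCS the sum was 1701, 1904 and 1755 CPM with vehicle and 1889, 1801 and 1736 CPM with FGF18. The WT FGF18 libraries all lay below the WT vehicle libraries in this sum, and the FGFR3/4KO libraries with and without FGF18 overlapped. By class, the sum of the 4 genes of the Slc35 family was highest in most libraries (509 to 667 CPM), followed by the 5 zinc carriers (362 to 625 CPM) and the 4 amino acid carriers (269.7 to 459 CPM). The sums were 145 to 257 CPM for the 5 mitochondrial carriers, 39.0 to 139 CPM for the 5 carriers of inorganic ions, and 57.6 to 94.9 CPM for the 4 carriers of vitamins, nucleosides and other organic substrates. Slc4a1ap stood at 28.3 to 81.2 CPM. In bulk samples such as these, fewer cells of a type and less RNA per cell cannot be told apart.

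**Figure D1:**
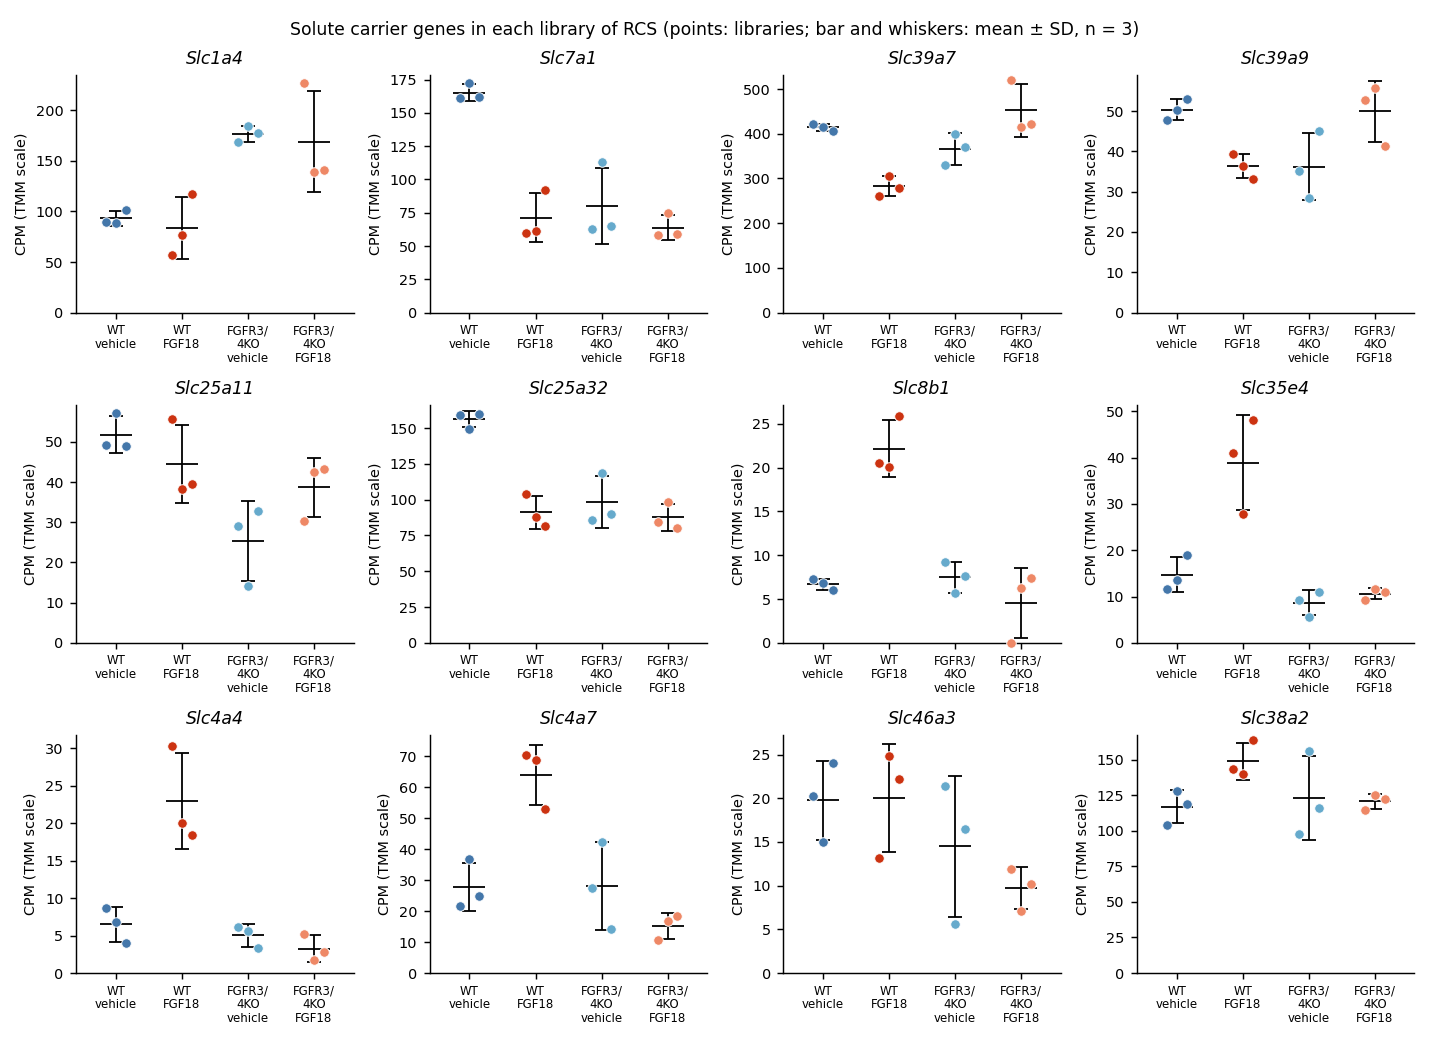
Levels of 12 solute carrier genes (CPM, TMM scale, linear axis from 0) in each of the 12 libraries, by group; points are libraries, the bar and whiskers are the mean and SD of 3 replicates. Slc4a4, Slc4a7, Slc8b1 and Slc35e4 are highest in the 3 WT FGF18 libraries, and Slc7a1 and Slc25a32 are highest in the 3 WT vehicle libraries.

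The comparison of FGF18 with vehicle in WT RCS asks what the growth factor did in cells with all receptors. The bicarbonate carriers Slc4a7 and Slc4a4 and the mitochondrial calcium exchanger Slc8b1 rose, and carriers of cationic amino acids, of folate in mitochondria and of ER zinc fell. Among the 23 solute carrier genes tested, the largest rise was 3.68-fold (Slc4a4) and the largest fall was 2.35-fold (Slc7a1). Of these 23 genes, which passed the filter on low counts, 4 (17.4%) rose and 4 (17.4%) fell at a false discovery rate (FDR) under 0.05 in edgeR's quasi-likelihood test, adjusted over the 7378 genes tested. Among all tested genes 12.9% rose and 12.8% fell, so the solute carriers' shares were near the background. Their median log2 fold change was -0.05, against 0.02 over all genes tested. The filter asked for 11.3 CPM in at least 3 libraries, and Slc4a4 and Slc8b1 passed it only through the WT FGF18 libraries, so that a difference was built into their selection and the number of rises is no support for a pattern. Both were also called in this comparison with no filter on low counts. That does not lift the selection. Without the reads of the WT FGF18 libraries, neither gene would have reached the minimum of reads asked of the genes followed here.

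Slc7a1 (ENSRNOG00000000924), the cell surface carrier for arginine, lysine and ornithine, was at 161, 173 and 162 CPM in the WT vehicle libraries and at 59.8, 61.2 and 92.4 CPM in the WT FGF18 libraries. Every library with FGF18 lay far below every vehicle library, with replicate 3 the highest of the treated ones. The mean fell from 165 ± 6.55 to 71.2 ± 18.4 CPM (± SD over 3 libraries each), a change of -1.24 (SE 0.19, FDR = 1.82e-05) on the log2 scale, where SE is the standard error. Of the other amino acid carriers tested, Slc38a2, a sodium-coupled carrier of small neutral amino acids such as alanine and glutamine, stood at 104, 128 and 119 CPM with vehicle and 143, 139.7 and 164 CPM with FGF18. All 3 treated libraries were above all 3 untreated ones, as in 20.2% of all genes tested, but the log2 difference of 0.34 did not pass (FDR = 0.125). Slc1a4, an exchanger of alanine, serine and cysteine, was at 89.9, 88.4 and 102 CPM with vehicle and 57.4, 76.5 and 117 CPM with FGF18. Its treated libraries spread around the untreated ones, and the log2 difference was -0.20 (FDR = 0.559). In sum, 0 of the 3 tested amino acid carriers rose and 1 (33.3%) fell, against 12.9% and 12.8% of all genes tested. Unadjusted p was under 0.05 for 2 of them. With DESeq2 and the likelihood-ratio test the same 8 solute carrier genes were called in this comparison.

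Among the zinc carriers, 1 of 4 tested genes (25%) fell and 0 rose, against 12.8% and 12.9% of all genes tested. Slc39a7 (ENSRNOG00000000465), which lets zinc out of the ER and Golgi into the cytosol, was at 422, 416 and 406 CPM with vehicle and 262, 306 and 279.7 CPM with FGF18. The vehicle libraries lay close together, well above the treated ones. On average it fell from 415 ± 8.11 to 282 ± 22.4 CPM (± SD over 3 libraries each), and the log2 fold change was -0.55 (SE 0.13, FDR = 0.00221). Slc39a9, another carrier that brings zinc into the cytosol, was at 47.8, 50.3 and 52.97 CPM with vehicle and 39.3, 36.3 and 33.3 CPM with FGF18. The treated libraries were again all lower, as in 19.5% of all genes tested, yet the log2 difference of -0.47 did not pass (FDR = 0.128). Slc30a4, which loads zinc into vesicles, and Slc30a9, which acts on mitochondrial zinc, had log2 differences of 0.11 and -0.88 and did not pass (FDR = 0.761 and 0.252).

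Mitochondrial carriers gave 1 rise (25%) and 2 falls (50%) among 4 tested genes, against 12.9% and 12.8% of all genes tested. The rise was in Slc8b1, which the filter favoured, and nothing is read from counts in so few genes. Slc25a32 (ENSRNOG00000004403), which brings folate and flavin cofactors into mitochondria, was at 159, 149.6 and 159.9 CPM with vehicle and 104, 88.00 and 81.3 CPM with FGF18. All treated libraries were lower than all untreated ones, and the log2 fold change was -0.77 (SE 0.16, FDR = 6.70e-04). Slc8b1 (ENSRNOG00000001383), the exchanger that lets calcium out of mitochondria in return for sodium, was at 7.25, 6.80 and 5.996 CPM with vehicle and 20.5, 20.1 and 25.9 CPM with FGF18. It was a weakly expressed gene whose treated libraries all lay above its untreated ones, and the log2 fold change came to 1.71 (SE 0.45, FDR = 0.00600). Slc25a11, which exchanges oxoglutarate for malate, overlapped between the groups, at 49.3, 57.1 and 48.97 CPM and 55.7, 38.3 and 39.4 CPM, with a log2 difference of -0.20 (FDR = 0.586).

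Of the inorganic ion carriers 3 were tested, of which Slc4a7 and Slc4a4 rose and 0 fell. Since Slc4a4 entered the test only through the WT FGF18 libraries, nothing is read from this count against the 12.9% of all genes that rose. Slc4a7 (ENSRNOG00000005957), the electroneutral sodium bicarbonate cotransporter, was at 21.7, 36.7 and 24.98 CPM with vehicle and 70.5, 68.9 and 52.98 CPM with FGF18. Each treated library was above each untreated one, and the log2 fold change was 1.22 (SE 0.28, FDR = 0.00166). Slc4a4 (ENSRNOG00000003134), the electrogenic sodium bicarbonate cotransporter, stood at 8.70, 6.80 and 3.997 CPM with vehicle, near the floor of 3 reads, and at 30.3, 20.1 and 18.5 CPM with FGF18. The treated libraries were clearly higher, and the log2 fold change came to 1.88 (SE 0.43, FDR = 0.00165). The summed level of the 5 genes of this class was 68.1, 74.8 and 61.96 CPM with vehicle and 139, 127 and 105 CPM with FGF18. A higher sum with FGF18 was partly built in. Slc4a4 and Slc12a1 reached the minimum of reads for the genes followed here only with the reads of the WT FGF18 libraries. In that sum Slc4a7 was the most abundant gene.

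In the Slc35 family, 1 of 4 tested genes (25%) rose and 0 fell, against 12.9% and 12.8% of all genes tested. Slc35e4 (ENSRNOG00000004168), whose substrate is not known, was at 11.6, 13.6 and 18.99 CPM with vehicle and 40.99, 27.7 and 48.1 CPM with FGF18. No treated library came down to the untreated ones, and the log2 fold change was 1.35 (SE 0.31, FDR = 0.00163). Slc35b1 stood at 381, 424 and 359.8 CPM with vehicle and 445, 398 and 441 CPM with FGF18. These groups overlapped, with a log2 difference of 0.14 (FDR = 0.445). Slc35a4 and Slc35f5 had log2 differences of -0.05 and 0.78 and did not pass (FDR = 0.871 and 0.182).

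None of the 4 tested carriers of vitamins, nucleosides and other organic substrates rose or fell by the quasi-likelihood test, and 0 of them had an unadjusted p under 0.05. These are Slc19a1, the reduced folate carrier, Slc29a3, a lysosomal nucleoside carrier, Slc46a3, a lysosomal carrier, and Slc52a3, a riboflavin carrier. Their log2 differences ran from -0.29 (Slc19a1) to 0.16 (Slc29a3), with the lowest FDR at 0.657. DESeq2 and the likelihood-ratio test called 0 of them as well. By the quasi-likelihood test, 12.9% of all genes tested rose and 12.8% fell. Slc4a1ap had 68.1, 55.8 and 60.96 CPM with vehicle and 61.5, 33.5 and 28.3 CPM with FGF18. Replicate 1 of the treated libraries was level with the vehicle libraries and the other 2 were lower, so the log2 difference of -0.54 did not pass (FDR = 0.103). Without that replicate it passed (FDR = 0.00437).

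**Figure D2:**
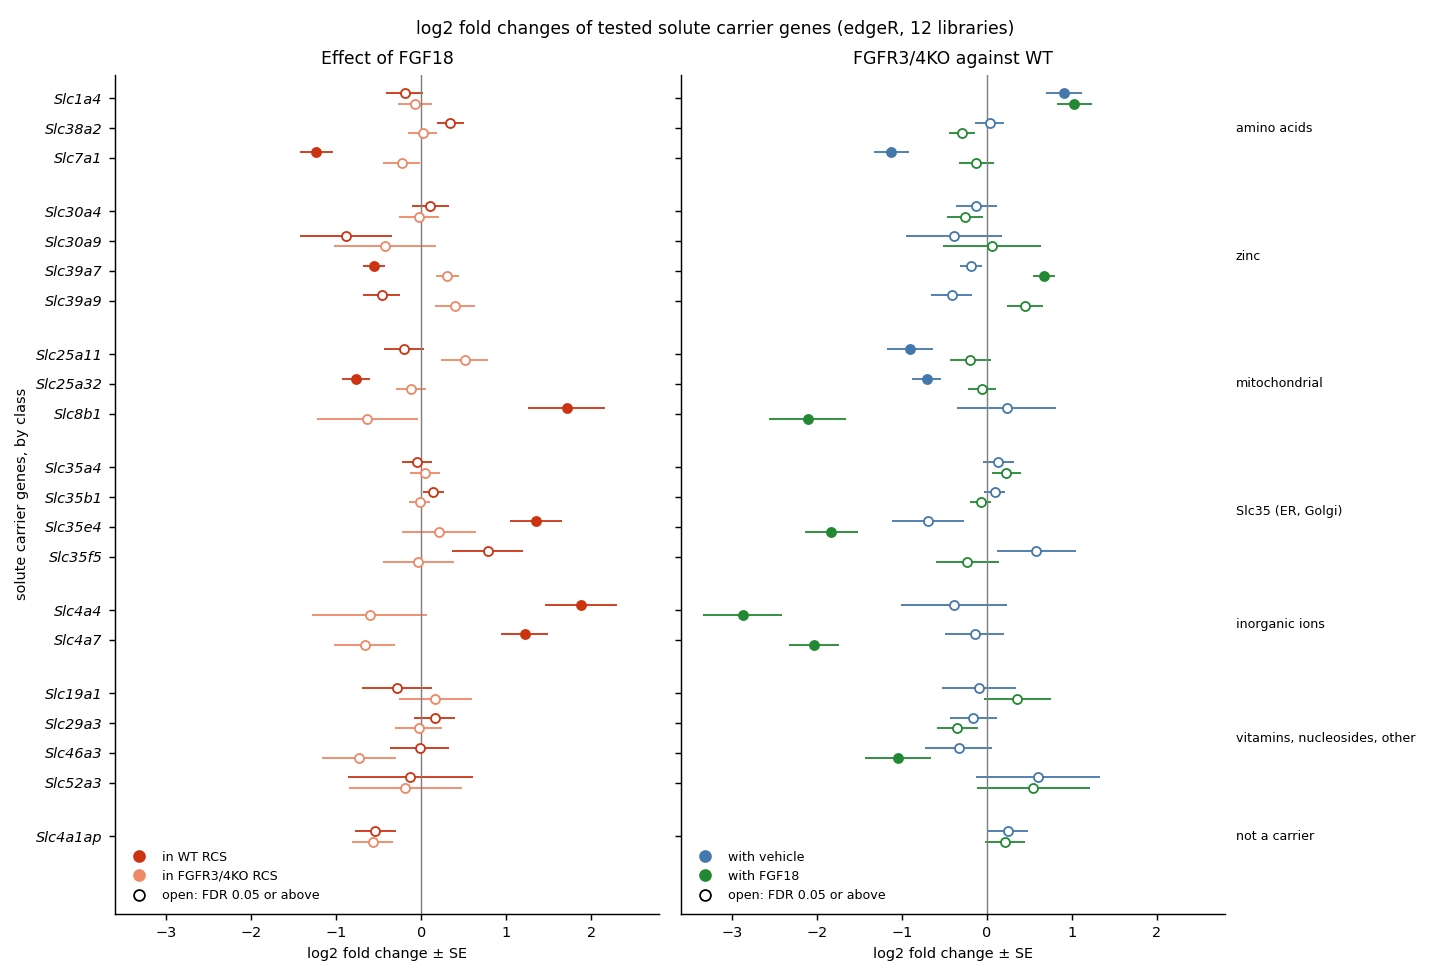
Log2 fold changes of tested solute carrier genes, with bars of 1 standard error and filled points for an FDR under 0.05, for FGF18 against vehicle in WT and in FGFR3/4KO RCS and for FGFR3/4KO against WT RCS with vehicle and with FGF18. In WT RCS the values run from -1.24 (Slc7a1) to 1.88 (Slc4a4), and in FGFR3/4KO RCS from -0.74 (Slc46a3) to 0.51 (Slc25a11).

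FGF18 against vehicle in FGFR3/4KO RCS asks what the growth factor did without the targeted receptors. No solute carrier gene passed the test in the mutant clone. The genes that changed most in WT RCS had small log2 differences here or differences of the other sign. Of the 23 tested genes, 0 rose and 0 fell at an FDR under 0.05 in edgeR's quasi-likelihood test, against 0% and 0% of all 7378 genes. Unadjusted p was under 0.05 for 2 of 23 solute carrier genes, Slc39a7 and Slc4a1ap, and for 478 of all genes, and the lowest FDR of a solute carrier was 0.752. DESeq2 and edgeR's likelihood-ratio test also called 0 of the 23. The median log2 fold change was -0.08, against 0.01 over all genes tested. A gene that did not pass is not thereby shown to have stayed the same.

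Genes that changed in WT RCS had the following levels in the mutant. Slc7a1 was at 62.8, 113 and 64.7 CPM with vehicle and 58.01, 74.4 and 58.96 CPM with FGF18 (log2 difference -0.23), and Slc25a32 at 85.8, 119 and 89.9 and 84.4, 98.4 and 80.1 CPM (-0.12). For both genes the groups overlapped, near the levels of the WT FGF18 libraries. Slc39a7 was at 329, 399 and 369 CPM with vehicle and 519, 415 and 422 CPM with FGF18 (0.31). Here all 3 treated libraries lay above all 3 untreated ones, with replicate 1 the highest, the opposite order to that in WT RCS. Such an order was found in 6.38% of all genes tested, and the difference did not pass (FDR = 0.752).

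The 4 genes that rose in WT RCS were all low in the mutant with FGF18. Slc4a7 was at 27.6, 42.5 and 14.2 CPM with vehicle and 10.5, 16.8 and 18.4 CPM with FGF18 (log2 difference -0.67). The vehicle libraries were widely spread and overlapped the treated ones. Slc4a4 was at 6.13, 5.67 and 3.29 CPM with vehicle and 5.27, 1.77 and 2.76 CPM with FGF18 (-0.61), and Slc8b1 at 9.19, 5.67 and 7.67 and 0, 6.20 and 7.37 CPM (-0.63). Slc4a4 had 2 to 4 reads in each mutant library and Slc8b1 had 0 to 8, so there was little room to see a fall at this depth. Slc35e4 was at 9.19, 5.67 and 10.96 CPM with vehicle and 9.23, 11.5 and 11.1 CPM with FGF18 (0.21), with overlap. The zinc carrier Slc39a9 was at 35.2, 28.3 and 44.9 CPM with vehicle and 52.7, 55.8 and 41.5 CPM with FGF18 (0.40), and these groups overlapped.

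The interaction tests whether the FGF18 effect differed between the genotypes, as the effect in FGFR3/4KO RCS minus that in WT RCS. It was positive for the ER zinc carrier Slc39a7 and the cationic amino acid carrier Slc7a1, whose falls in WT RCS were not seen in the mutant. It was negative for the bicarbonate carrier Slc4a7 and the mitochondrial calcium exchanger Slc8b1, whose rises were not seen there. Of 23 tested genes, 2 (8.70%) had a positive and 2 (8.70%) a negative interaction at an FDR under 0.05, against 5.91% and 4.96% of all genes tested. Slc8b1 entered the test only through the WT FGF18 libraries, where it is high, which favoured a negative interaction, so the number of negative ones supports no pattern. The median interaction was -0.06 for the solute carriers and -0.01 for all genes tested. All 12 libraries enter this test, so it shares its samples with each of the other comparisons.

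The log2 interaction of Slc39a7 was 0.86 (SE 0.18, FDR = 0.00229) and that of Slc4a7 was -1.89 (SE 0.46, FDR = 0.00696), and both passed in each of the 12 fits that left out 1 library. Slc39a7 was highest in FGFR3/4KO FGF18 replicate 1, the library that stood apart, and without it the interaction was 0.79. For Slc7a1 it was 1.004 (SE 0.29, FDR = 0.0246). That call was lost without WT vehicle replicate 2 (FDR = 0.0580), WT FGF18 replicate 1 (FDR = 0.0562) or WT FGF18 replicate 2 (FDR = 0.0588). It was also lost without FGFR3/4KO vehicle replicate 1 (FDR = 0.0967), FGFR3/4KO vehicle replicate 3 (FDR = 0.0882) or FGFR3/4KO FGF18 replicate 2 (FDR = 0.0810). For Slc8b1 it was -2.34 (SE 0.76, FDR = 0.0452). This call held in 1 of the 12 fits, the one without FGFR3/4KO FGF18 replicate 3, and without each of the other 11 libraries its FDR lay between 0.0555 and 0.141. It was also lost with a filter of 1 CPM in 3 libraries (FDR = 0.0506), and DESeq2 gave no adjusted p for this gene. Slc8b1 had 0 reads in FGFR3/4KO FGF18 replicate 1, and without that library its interaction was -1.87 (FDR = 0.0726).

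For the other 4 genes called in WT RCS, Slc4a4, Slc25a32 and Slc35e4 among them, a difference in the FGF18 effect between genotypes was not shown. The log2 interaction was -2.49 (SE 0.84, FDR = 0.0538) for Slc4a4, and it passed without FGFR3/4KO FGF18 replicate 1 (FDR = 0.0384) and in the likelihood-ratio test (FDR = 0.0302). For Slc25a32 it was 0.65 (SE 0.24, FDR = 0.0806), and it passed without WT FGF18 replicate 1 (FDR = 0.0493) or FGFR3/4KO vehicle replicate 2 (FDR = 0.0369). Slc35e4 had -1.14 (FDR = 0.205), which did not pass. Slc39a9, like the other member of its family, had a positive value, 0.86 (SE 0.32, FDR = 0.0847), which passed without FGFR3/4KO FGF18 replicate 3 (FDR = 0.0495).

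FGFR3/4KO against WT RCS with vehicle asks how the clone differed without FGF18. The mutant had more of the neutral amino acid exchanger Slc1a4 and less of the cationic amino acid carrier Slc7a1. The mitochondrial carriers Slc25a32 and Slc25a11 were lower too. Of 23 tested solute carrier genes, 1 (4.35%) was higher and 3 (13.0%) were lower at an FDR under 0.05, against 8% and 6.07% of all genes tested. The number of all genes called lower, 448, is not firm: it was 259 without FGFR3/4KO vehicle replicate 1, 258 without its replicate 3, 294 without WT vehicle replicate 2 and 685 of 6250 genes in a model of only the groups compared. Of the solute carriers 2 or 3 were lower in these fits. The median log2 difference was -0.16, against -0.01 over all genes tested. This comparison shares the WT vehicle libraries with that of FGF18 in WT RCS, so that high values in those 3 libraries enter both as lower values on the other side.

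Slc1a4 (ENSRNOG00000005248) was at 169, 184 and 178 CPM in the FGFR3/4KO vehicle libraries, against 89.9, 88.4 and 102 CPM in WT vehicle. Every mutant library was well above every WT library, with means of 177 ± 7.83 and 93.4 ± 7.43 CPM (± SD over 3 libraries each), and the log2 fold change came to 0.91 (SE 0.21, FDR = 0.00429). Slc7a1 had means of 80.3 ± 28.6 and 165 ± 6.55 CPM (± SD over 3 libraries each), and its log2 fold change was -1.13 (SE 0.20, FDR = 2.96e-04). The mutant libraries all lay below the WT ones, with replicate 2, the shallowest library, the nearest to them. Slc25a32 had means of 98.2 ± 18.1 and 156 ± 5.82 CPM (± SD over 3 libraries each), without overlap, and the log2 fold change came to -0.71 (SE 0.17, FDR = 0.00473).

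Slc25a11 (ENSRNOG00000003815) stood at 29.1, 14.2 and 32.9 CPM in FGFR3/4KO vehicle, against 49.3, 57.1 and 48.97 CPM in WT vehicle. Here too the groups were apart, and the lowest value was that of the shallowest library. The log2 fold change was -0.91 (SE 0.28, FDR = 0.0257). The call was lost without WT vehicle replicate 2 (FDR = 0.0887), WT vehicle replicate 3 (FDR = 0.0530), FGFR3/4KO vehicle replicate 1 (FDR = 0.0664) or FGFR3/4KO vehicle replicate 2 (FDR = 0.0956). Summed over the 5 mitochondrial carriers, the level was 257, 249 and 255 CPM in WT vehicle and 147, 176 and 158 CPM in FGFR3/4KO vehicle. The WT vehicle libraries were the highest of all 12 in this sum, with WT FGF18 at 207, 169 and 161 CPM and FGFR3/4KO FGF18 at 145, 178 and 151 CPM.

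FGFR3/4KO against WT RCS with FGF18 compares the genotypes under the growth factor. The bicarbonate carriers Slc4a4 and Slc4a7, the calcium exchanger Slc8b1, Slc35e4 and the lysosomal carrier Slc46a3 were lower in the mutant. The amino acid exchanger Slc1a4 and the ER zinc carrier Slc39a7 were higher. Of 23 tested genes, 2 (8.70%) were higher and 5 (21.7%) were lower, against 16.9% and 17% of all genes tested. The median log2 difference was -0.12, against -0.03 over all genes tested. The WT FGF18 libraries are shared with the comparison of FGF18 in WT RCS, so the 4 genes that rose there start from the same high values here, and Slc4a4 and Slc8b1 again passed the filter only through those libraries.

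The log2 fold change was -2.88 (SE 0.47, FDR = 2.38e-05) for Slc4a4, -2.03 (SE 0.29, FDR = 4.60e-06) for Slc4a7 and -2.11 (SE 0.46, FDR = 6.56e-04) for Slc8b1. For Slc35e4 it was -1.83 (SE 0.31, FDR = 4.46e-05). In each of these 4 genes all FGFR3/4KO FGF18 libraries lay below all WT FGF18 libraries, as they did in 21.5% of all genes tested, and for Slc4a4 and Slc8b1 the filter favoured this order. Slc39a7 differed by 0.68 (SE 0.13, FDR = 1.75e-04) and Slc1a4 by 1.03 (SE 0.21, FDR = 3.02e-04). Slc1a4 was at 227, 139 and 141 CPM in FGFR3/4KO FGF18, above all WT FGF18 libraries, and was thus higher in the clone both with and without FGF18. Without FGFR3/4KO FGF18 replicate 1, which stood apart, the differences with FGF18 were 0.81 for Slc1a4 and 0.60 for Slc39a7, and both passed.

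Slc46a3 (ENSRNOG00000000937) was at 11.9, 7.09 and 10.1 CPM in FGFR3/4KO FGF18, against 13.1, 24.9 and 22.2 CPM in WT FGF18. With vehicle it was at 21.4, 5.67 and 16.4 CPM in the mutant and 20.3, 14.96 and 23.98 CPM in WT RCS. The groups with FGF18 did not overlap, though by a narrow margin, and the log2 fold change was -1.05 (SE 0.39, FDR = 0.0373). This call was lost without WT FGF18 replicate 2 (FDR = 0.185), WT FGF18 replicate 3 (FDR = 0.0896) or FGFR3/4KO FGF18 replicate 2 (FDR = 0.156). It was also lost without FGFR3/4KO FGF18 replicate 3 (FDR = 0.0826) or FGFR3/4KO vehicle replicate 3 (FDR = 0.0528), and with 4 of 8 other settings, namely DESeq2, no filter, the filter of 1 CPM in 3 libraries and a model of only the groups compared (FDR from 0.0519 to 0.0791). Without WT FGF18 replicate 3, calls were gained for Slc35a4 (higher in the mutant, FDR = 0.0397) and for Slc12a1 (lower, FDR = 0.0470). Slc12a1 passed the filter in that fit and had its highest levels in the other 2 WT FGF18 libraries (11.5 and 13.4 CPM), so that a lower value in the mutant was built into its selection.

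Over the 5 comparisons, 11 of the 28 genes were called at least once, 12 were tested and called in none, and 5 were not tested. The 12 include Slc38a2, the zinc carriers Slc39a9, Slc30a4 and Slc30a9, the Slc35 members Slc35a4, Slc35b1 and Slc35f5, and Slc19a1, Slc29a3, Slc52a3 and Slc4a1ap. Their log2 differences lay between -0.88 (Slc30a9) and 0.78 (Slc35f5) for FGF18 in WT RCS and between -0.57 (Slc4a1ap) and 0.40 (Slc39a9) in FGFR3/4KO RCS. Between genotypes, the 12 lay between -0.44 and 0.60 (Slc52a3) with vehicle, and between -0.80 and 0.54 (Slc52a3) with FGF18. Of those named here, the lowest were -0.42 (Slc39a9) with vehicle and -0.35 (Slc29a3) with FGF18. The levels of Slc35b1 in the mutant, 429, 371 and 431 CPM with vehicle and 373, 422 and 424 CPM with FGF18, were within the range of the WT libraries. Slc38a2 was at 98.1, 156 and 116 CPM and 115, 125 and 123 CPM there, with FGFR3/4KO vehicle replicate 2 the highest.

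The 5 genes that did not pass the filter had few reads over the 12 libraries. Among them were the mitochondrial carrier Slc25a16 (83 reads), Slc30a6 (77 reads), Slc12a1 (75 reads) and Slc38a10 (74 reads). Below the minimum of 60 reads were 14 named Slc genes. Apart from Slc7a4 and Slc30a3 they included Slc26a8 (51 reads), Slc35f1 (50), Slc43a2 (37), Slc26a1 and Slc38a4 (34 each), Slc25a29 (29), Slc19a2 (28), Slc25a30 (17), Slc37a1 (15), Slc30a1 (13) and Slc2a6 (9). Slc26a1 is a sulfate carrier, and Slc2a6 is a relative of the glucose carriers. The levels of these 14 genes were not compared between groups.

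Other genes of membrane transport were counted in the same way. The counts of these and the later lists are read against the shares of all tested genes. These shares are 12.9% risen and 12.8% fallen with FGF18 in WT RCS, and 5.91% with a positive and 4.96% with a negative interaction. Between genotypes they are 8% higher and 6.07% lower in the mutant with vehicle, and 16.9% higher and 17% lower with FGF18. Of 8 listed carriers without an Slc symbol, 5 were tested and 1 (20%) rose with FGF18 in WT RCS, Mfsd11 (log2 fold change 0.66), which was lower in the mutant with FGF18 (-0.76). Dirc2, a lysosomal carrier of the same superfamily as Mfsd11, was higher in the mutant with vehicle (1.31) and with FGF18 (1.02). Of 5 ABC transporters, 2 were tested and 0 passed in WT RCS, where 0 had an unadjusted p under 0.05, and the lysosomal peptide carrier Abcb9 was lower in the mutant with vehicle (-1.18). Among 8 tested ATPases of 11 listed, 3 (37.5%) rose and 1 (12.5%) fell with FGF18 in WT RCS. Atp1b1, a subunit of the sodium pump whose gradient drives many solute carriers, rose by 1.21 on the log2 scale, with an interaction of -1.37, the only one called in this list. Its level was 68.1, 67.99 and 57.96 CPM in WT vehicle and 121, 130.3 and 106 CPM in FGFR3/4KO vehicle, higher by 0.87, the 1 call of this list (12.5%) between genotypes with vehicle. Atp2b4, a calcium pump of the cell surface, rose by 0.89, its relative Atp2b1 fell (-0.31), and Atp6ap2, an accessory protein of the proton pump, rose by 0.46. With FGF18, 0 of the 8 were higher and 3 (37.5%) lower in the mutant: Atp1b1 (-0.50), Atp2b4 (-0.65) and the proton pump subunit Atp6v1a (-0.70).

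Among ion channels, 15 of 27 were tested, and 2 rose and 2 fell with FGF18 in WT RCS, 13.3% each way and so near the shares of all genes tested. On the log2 scale the rises were 0.92 for Mcoln1, a lysosomal cation channel, and 0.82 for P2rx4, an ATP-gated channel. The falls were -0.65 for Lrrc8d, a subunit of the volume-regulated anion channel, and -1.12 for Tmem206, an acid-activated chloride channel. With vehicle 0 were higher and 4 (26.7%) lower in the mutant: P2rx4 (-1.47), the gap junction protein Gja1 (-0.96), Lrrc8d (-0.74) and the calcium channel Orai1 (-0.70). With FGF18 2 (13.3%) were higher, Lrrc8c (0.57) and Trpv4 (0.41), and 5 (33.3%) lower, Cacna1e (-2.35), P2rx4 (-2.11), Gja1 (-1.53), the sodium channel Scn2a (-1.47) and Mcoln1 (-1.02). The interaction was positive for 2 (13.3%), Orai1 (1.001) and Lrrc8d (0.91), and negative for 0.

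In a list of 8 genes of the response to amino acid shortage and ER stress, a pathway known to raise Slc7a1, Slc1a4 and Slc38a2 in other cells, 2 rose and 2 fell with FGF18 in WT RCS (25% each). Atf3, a stress transcription factor, rose by 1.43 and Eif2ak4, the kinase that senses uncharged tRNA, by 0.66, while the tRNA ligases Eprs and Vars fell (-0.85 and -0.98). In FGFR3/4KO against WT RCS with FGF18, 2 of the 8 were higher, Eprs (1.17) and Vars (1.20), and 2 were lower, Wars (-0.43) and Eif2ak4 (-0.60), shares of 25% each against 16.9% and 17% of all genes tested. With vehicle 1 (12.5%) was higher, Eprs (0.39), and the interaction was positive for 2 (25%), Eprs (0.78) and Vars (0.93). Of 4 tested genes of FGF and MAPK feedback, 2 (50%) rose with FGF18 in WT RCS, Phlda1 by 3.18 and Etv5 by 2.64, and both had a negative interaction (-2.74 and -1.86). Etv5, a transcription factor, was at 11.6, 8.16 and 12.99 CPM in WT vehicle and at 59.7, 53.8 and 54.8 CPM in FGFR3/4KO vehicle, higher by 2.33, the only call of this list there. With FGF18 0 were higher and 3 (75%) lower in the mutant: Phlda1 (-2.91), Dusp1 (-2.46) and Spred1 (-2.08). Dusp1, Spred1 and the channel Cacna1e reached the level of the filter in WT libraries only, which favoured a lower value in the mutant. In FGFR3/4KO RCS 0 genes of these lists passed the quasi-likelihood test with FGF18, and unadjusted p was under 0.05 for 2 of the ion channels and 2 of the FGF and MAPK feedback genes and for 0 genes of the other 4 lists. Over all genes tested, DESeq2 called 0 in that comparison, the likelihood-ratio test 3, the filter of 1 CPM in 3 libraries 1, the model of only the groups compared 2, and the fit that left out WT FGF18 replicate 3 called 1; with no filter 9 were called upward and 11 downward.

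The label of chondrocytes was checked with 9 cartilage genes, of which 8 were tested. Their summed level was 18026 to 24994 CPM per library, with Mgp (8812 to 15031 CPM) the most abundant, and Sox9, the transcription factor that defines the lineage, at 1262 to 2055 CPM. With FGF18 in WT RCS 1 of the 8 (12.5%) rose (Mia, 0.37) and 3 (37.5%) fell (Prelp, -0.68, Fmod, -0.57, and S100b, -0.52). Of all genes tested 12.9% rose and 12.8% fell. In FGFR3/4KO against WT RCS with vehicle 3 (37.5%) were higher (Fmod, 1.01, Prelp, 0.49, and Col11a2, 0.40) and 2 (25%) lower (Chad, -2.23, and Mia, -0.35). The shares of all genes tested were 8% and 6.07%. With FGF18 4 (50%) were higher (Fmod, 1.79, Prelp, 1.22, Sox9, 0.54, and Col11a2, 0.44) and 2 (25%) lower (Chad, -1.42, and Mia, -0.72). Here the shares of all genes tested were 16.9% and 17%. Chad reached the level of the filter in WT libraries only, which favoured its lower values in the mutant. The interaction was positive for 2 (25%), Fmod (0.79) and Prelp (0.74), against 5.91% of all genes tested. The part of these cartilage genes in the solute carrier results was not tested. Fibroblast and bone genes gave 2 tested of 7 listed, with Col5a2 the most abundant and a summed level of 27.98 to 87.7 CPM. That sum was highest in WT FGF18, at 87.7, 81.3 and 67.8 CPM against 30.4, 29.9 and 27.98 CPM in WT vehicle. In the mutant it was 35.2, 31.2 and 30.7 CPM with vehicle and 32.96, 37.2 and 33.2 CPM with FGF18. Of the 2 tested, Col5a2 rose by 2.55 with FGF18 in WT RCS, while the value of Thy1 was -0.57 and did not pass. In the mutant with FGF18, where Slc4a4, Slc4a7, Slc8b1, Slc35e4 and Slc46a3 were lower, Col5a2 was lower too (-3.58) and Thy1 did not pass (0.25). Col5a2 reached the level of the filter in WT libraries only, mainly with FGF18, so that both of its differences were favoured by its selection, and the part of these markers in the solute carrier changes was not tested. Col1a1, Lum, Pdgfra, Mepe and Phospho1 were at 0 in some libraries. Pdgfra was at 6.56, 6.70 and 11.1 CPM in WT FGF18 and 0 to 2.76 CPM in the other libraries. Col1a1 was at 5.74, 7.65 and 22.2 CPM in WT FGF18 and 0, 4.08 and 0 CPM in WT vehicle. In FGFR3/4KO RCS it was at 2.64 to 12.1 CPM. Phospho1 was highest in FGFR3/4KO FGF18 (3.95, 10.6 and 10.1 CPM), and Lum and Mepe were at 2.66 CPM or less.

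Markers of other cells were scarce. Of 7 blood cell genes 1 was tested, and their sum was 42.5 to 88.7 CPM, led by Def6. The 2 endothelial genes, Flt1 and Notch4, were not tested. Their sum was 5.74, 5.74 and 4.93 CPM in WT FGF18 and 0 to 2.83 CPM in the other libraries. The part of these genes in the solute carrier results was not tested. Of 8 hepatocyte genes 1 was tested, albumin (Alb), the most abundant, and the sum was 10.1, 17.7 and 1.999 CPM in WT vehicle, 9.84, 42.1 and 46.8 CPM in WT FGF18, 30.6, 33.99 and 41.6 CPM in FGFR3/4KO vehicle and 0, 7.98 and 11.1 CPM in FGFR3/4KO FGF18. In FGFR3/4KO FGF18 replicate 1 all 8 were at 0 reads. Alb moved with the groups, with a rise of 1.79 in WT RCS, an interaction of -4.35, a higher level in the mutant with vehicle (2.01) and a lower one with FGF18 (-2.34), and its part in the solute carrier results was not tested. Of 5 neural genes 2 were tested and 0 passed in WT RCS by the quasi-likelihood test, where 1 had an unadjusted p under 0.05. With FGF18 1 was lower in the mutant, Scn2a, which is also among the ion channels, and their sum was 25.5 to 103 CPM, led by Syt1.

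Promoter windows of 250 bases before an annotated gene start, from RefSeq in build GRCr8, were found by symbol for 18 of the 28 genes and for 27457 genes in all. The windows of Slc1a4, Slc19a1, Slc39a7, Slc46a3, Slc4a1ap and Slc4a4, among others, overlap the annotated span of the same gene. They are thus not shown to lie upstream of the whole gene, and positions below are counted back from the end of each window. The median GC content was 61.8% for the 18 and 52% for all. The letters of the amino acid response element, TGATGNAA on either strand, were in 3.28% of all promoters and in 2 of the 18, those of Slc7a1 (30 bases before the start) and Slc1a4 (235 bases before). Both code for amino acid carriers, and they differed in opposite directions between the genotypes with vehicle. The part of these letters in either difference was not tested. The E-box letters CACGTG were in 5.78% of all promoters and in 1 of the 18, that of Slc1a4 (20 bases before the start). For the metal response element, the form TGCACNC was in 10.2% of all promoters and in 2 of the 18 (Slc46a3 and Slc4a1ap). Its other form, TGCGCNC, was in 12.7% and in 4 of the 18 (Slc19a1, Slc30a4, Slc39a7 and Slc4a4), and the promoter of the zinc carrier Slc39a7 held 4 such matches, at 99, 98, 91 and 31 bases before the start, of which the first 2 overlap on opposite strands. In all, 8 of the 18 promoters held at least 1 of these motifs.

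The promoter of Slc7a1 is shown because this gene had the lowest FDR of the solute carriers with FGF18 in WT RCS and a called interaction, and because its window overlaps no other annotated gene. It lies at chr12:11664238-11664487 on the plus strand of GRCr8 (RefSeq) and is written 5′ to 3′ with the match to the amino acid response element in capitals. A match describes letters and is not a site shown to be bound.
Slc7a1 promoter: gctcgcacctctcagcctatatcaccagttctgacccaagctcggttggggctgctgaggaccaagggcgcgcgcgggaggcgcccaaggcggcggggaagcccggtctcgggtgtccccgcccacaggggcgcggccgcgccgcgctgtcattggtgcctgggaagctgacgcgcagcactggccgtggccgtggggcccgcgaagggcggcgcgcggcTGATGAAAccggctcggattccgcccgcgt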

How the data were processed

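The authors deposited counts, the number of unnormalized reads on every gene, for 12 QuantSeq libraries, together with the uncounted reads by class. Per the labels and the published methods, reads were trimmed with Trim Galore, aligned to rn6 with STAR and counted with htseq-count. Their versions are not given in the sources used here. Gencode v19 is the annotation stated in the methods, but the genes carry rat Ensembl identifiers.

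Genes were tested with edgeR 4.0.16 (R 4.3.3). The filterByExpr function (minimum count 10, minimum total 15) left 7378 of 32754 genes, 1418 of them named, and 23 of the 28 solute carrier genes. After TMM normalization all 12 libraries entered 1 model with a mean per group, tested by quasi-likelihood with Benjamini-Hochberg adjustment over 7378 genes and an FDR threshold of 0.05. The 5 comparisons were FGF18 in each genotype, their interaction, and genotype with vehicle and with FGF18. Standard errors (SE) are the ratio of the log2 fold change to the root of the F statistic. CPM is per 1e6 reads on tested genes, scaled by TMM.

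Alternatives were the likelihood-ratio test, DESeq2 1.42.0, upper-quartile and DESeq2 size factors, no filter, a filter of 1 CPM in 3 libraries, a replicate block, a model of only the groups compared, and each of 12 libraries left out in turn. limma 3.58.1 was loaded with edgeR. The fit was checked on simulated data, but no result of that check is given here and nothing above rests on it. Counts and sums cover all solute carrier genes, of which some are not reported here by name, and of the other lists the called genes are named. The members and lists were chosen with earlier results of these data known. Depth ranged from 373964 to 1196647 reads on genes. Reads of too low alignment quality made up 77.0 to 79.8% in WT and 71.2 to 74.6% in FGFR3/4KO libraries.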

Additional observations from a re-analysis of the deposited data

Results flagged for a closer look

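For 4 of the 23 solute carrier genes tested, the effect of FGF18 differed between WT and FGFR3/4KO RCS by the test of the interaction itself (edgeR, FDR under 0.05). It was positive for 2 and negative for 2, or 8.70% each, against 5.91% and 4.96% of all genes tested, and nothing is read from these counts. The log2 interaction, FGFR3/4KO minus WT, was 0.86 (SE 0.18, FDR = 0.00229) for the ER zinc carrier Slc39a7 and 1.004 (SE 0.29, FDR = 0.0246) for the cationic amino acid carrier Slc7a1. It was -1.89 (SE 0.46, FDR = 0.00696) for the bicarbonate carrier Slc4a7 and -2.34 (SE 0.76, FDR = 0.0452) for the mitochondrial calcium exchanger Slc8b1. Slc8b1 passed the filter on low counts only through the WT FGF18 libraries, which favoured a negative value. Its call was lost in 11 of the 12 fits that left out 1 library, with the replicate block and with the filter of 1 CPM in 3 libraries, and DESeq2 gave it no adjusted p. The call of Slc7a1 was lost in 6 of the 12 fits.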

How the results depend on the processing

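No log2 fold change of a called solute carrier gene changed sign in any of the 20 settings. The counts of solute carrier genes called in the comparisons of FGF18 within a genotype and between genotypes stayed within 1.5 times their values. Among all genes tested, the number called lower in FGFR3/4KO RCS with vehicle, 448, moved by more than that, to between 258 and 685. The count of genes with a negative interaction was 2, and it was 1 with DESeq2 and 1 with the filter of 1 CPM in 3 libraries, since Slc8b1 was lost. It was 3 with the likelihood-ratio test, which gained Slc4a4 (FDR = 0.0302). With the replicate block it was also 1 (FDR of Slc8b1 0.0624). Over the 12 fits that each left out 1 library it ranged from 1 to 2, and the count of positive interactions, 2 in all, ranged from 1 to 3. In these fits fewer samples remain; other causes were not tested. The labels do not say whether replicates with the same number belong together, and no pairing by number was seen. Deviations from group means had a mean r across genes of -0.03 in 18 pairs of libraries with the same number. In 36 pairs with different numbers it was 0.02. These values cannot show that there was no pairing, and the replicate block is kept as an alternative only. The model of only the groups compared was not run for the interaction, which needs all 4 groups.

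Limits are as follows. With 3 replicates and 373964 to 1196647 reads per library, 8 of the 28 genes had a mean under 10 CPM, where a few reads decide a value. The mutant is 1 clone. Symbols were known for 1998 of 32754 genes, so most families are seen in part. Transcript levels say nothing of protein or of transport.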
